A study of Mus musculus with 8 samples.

Results

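The answer of RAW macrophages to co-culture with CT26 tumour cells was set against the answer of the CT26 cells to the same co-culture, gene by gene. For each of 2 experiments, the log2 value of co-cultured cells minus that of cells grown alone was taken in each line, and the CT26 change was subtracted from the RAW change. A positive difference thus means that the change was more positive in RAW. All 8 arrays of the series entered, and 18193 genes had 1 value each, from the brightest of their probe sets with 1 gene symbol among 45101 probe sets in all. Of these genes, 13196 lay above a brightness floor, the 40th percentile of the array, on both arrays of at least 1 group, and were tested.

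CT26 is a mouse cell line derived from a colon tumour. RAW264, called RAW here, is a mouse macrophage line, and both are long established. The 4 groups were CT26 alone, CT26 co-cultured with RAW, RAW alone and RAW co-cultured with CT26, with 2 arrays each. Both lines were kept in RPMI medium, CT26 in the well and RAW in a transwell insert, so that soluble molecules but not cells could cross, and the labels give no length for the co-culture. Trypsin was used to harvest CT26 and not RAW, which was lysed in place. A difference of levels between lines therefore also carries the harvest, while each change with co-culture compares cells harvested the same way. The labels name the arrays of a group only as first and second, so the p-values measure the spread between samples of 2 experiments, and each line is a single line. All 18 macrophage markers lay above the floor in both RAW groups, with mean log2 levels of 12.32 to 12.51 per array, against 5.88 to 5.92 in CT26. By count alone, 9 to 11 of the macrophage markers also lay above the floor in CT26. Of 12 epithelial markers 8 lay above the floor in CT26 and 4 to 5 in RAW. Of 8 mesenchymal markers 7 lay above it in CT26 and 5 to 6 in RAW. In CT26 the mean level per array was 6.93 to 6.99 for the epithelial markers and 9.62 to 10.15 for the mesenchymal ones. In RAW it was 5.28 to 5.32 for the epithelial and 5.69 to 5.8 for the mesenchymal markers. In cultures measured in bulk, fewer cells of a type and less RNA per cell cannot be told apart.

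Type I interferons are secreted proteins that act through a receptor and JAK kinases on transcription factors such as IRF9, which bind the interferon-stimulated response element in the promoters of antiviral genes. Macrophages answer interferon and many other soluble signals strongly, and tumour cells can carry the same receptor. NRF2 and ATF4, also described here, control antioxidant enzymes and the response to amino-acid shortage, and NF-kB, through subunits such as RelB, controls inflammatory genes.

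The change with co-culture was wider in RAW than in CT26. A change past 0.5 log2 units with the same sign in both experiments was found in RAW but not in CT26 for 318 of 13196 genes (2.41%), of which 143 were higher and 175 lower. The reverse, in CT26 but not in RAW, held for 13 genes (0.0985%), 9 higher and 4 lower. In both lines and in the same direction there were 12 genes (0.0909%), 11 of them higher, and in opposite directions 1 gene (0.00758%), Nfkbie. At 0.3 log2 units the classes held 811 genes in RAW, 105 in CT26, 38 in both and 4 in opposite directions. At 1 log2 unit 94 genes were left in RAW and 0 in the other classes. Genes of the RAW class at 0.5 were not all unchanged in CT26. Of the 143 higher in RAW, 76 were also higher in CT26 in both experiments, against 23.8% of all tested genes. Of the 175 lower in RAW, 62 were also lower in CT26 in both, against 30.1%. The CT26 change was under 0.25 for 87 of the 143 and 146 of the 175. How far the experiments repeated each other differed between the lines. Among genes past 0.5 in both experiments, 331 had the same sign and 7 opposite signs in RAW, against 26 and 9 in CT26. For the difference between lines the counts were 341 and 34. A gene with no change past 0.5 in CT26 may still have had one that these arrays do not resolve, since 26 of the 143 genes higher in RAW and 36 of the 175 lower ones were not above the floor in CT26 in either condition. Among all tested genes that was true of 3.71%. In the CT26 class, Clec1b and Csf2rb were not above the floor in CT26 itself, so their changes there are not well measured.

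**Figure D1:**
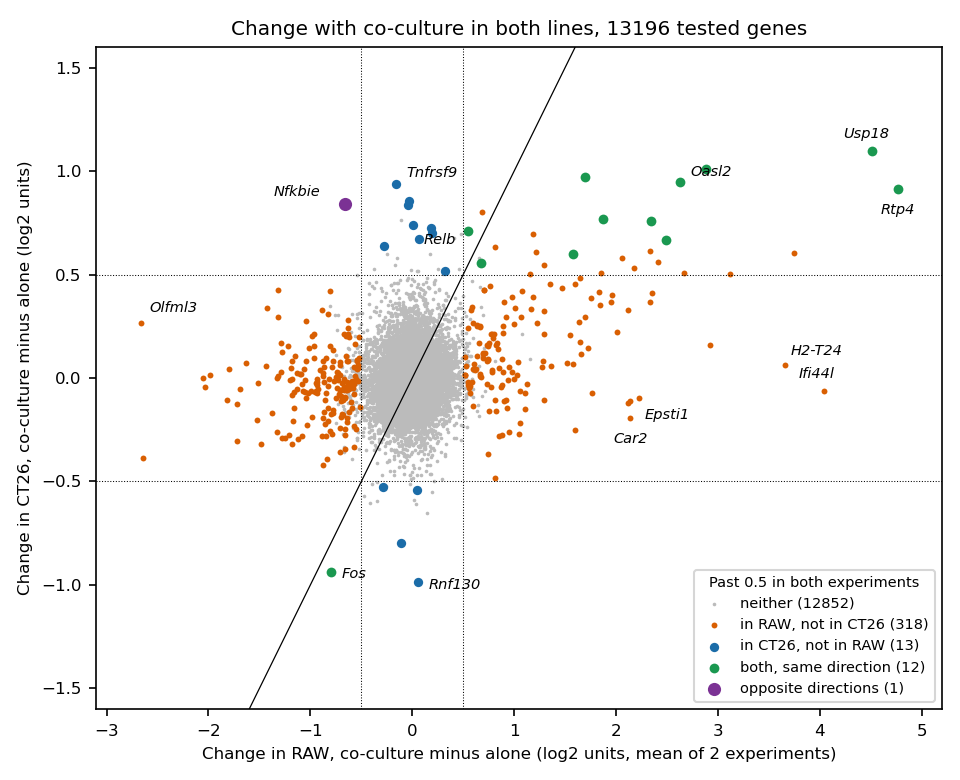
Change with co-culture in RAW (horizontal) against the change in CT26 (vertical), both in log2 units as means of 2 experiments, for all 13196 tested genes, with dotted lines at 0.5 and a solid line of equal change. Coloured genes passed 0.5 in both experiments in RAW (318), in CT26 (13), in both in the same direction (12) or in opposite directions (1); the cloud is stretched along the RAW axis.

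The difference between lines itself was tested with limma over all 13196 genes with Benjamini-Hochberg adjustment at 0.05. Without a term for the experiment 1 gene was called (0.00758%), Ifi44l, and 328 had an unadjusted p under 0.05. Same-numbered arrays shifted together, so fits that remove the shift between experiments are given beside it. A shift shared by the lines gave 11 calls (0.0834%), and a shift for each line, the block per line, gave 98 (0.743%), of which 51 were higher in RAW (0.386%) and 47 lower (0.356%). Testing the pair of differences directly, with 1 residual degree of freedom, gave 30 (0.227%). In RAW by itself 33 genes were called without the block (0.25%, 2 to 30 genes when any 1 array was left out) and 470 with the block per line (3.56%), 205 higher (1.55%) and 265 lower (2.01%). In CT26 limma called 0 genes without the block (0%) and 0 with it (0%), although 107 and 752 had an unadjusted p under 0.05, so no single change in CT26 is called below. Of the 98 genes called for the difference with the block per line, 93 had the larger change in RAW. The other 5 were Nfkbie, Rnf130, Cd37, Dtx4 and Clec1b, of which Clec1b was not above the floor in CT26 in either condition. In 58 of the 98 the CT26 change was under 0.25 log2 units, in 27 it was at least 0.25 in the same direction, and in 12 both changes were at least 0.25 and opposite in direction. The remaining gene was Rnf130, with -0.99 in CT26 and 0.06 in RAW.

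Ifi44l, an interferon-induced gene of unknown enzymatic function, had the clearest difference. In CT26 alone it read 4.77 and 4.57 log2 units in experiments 1 and 2, and in co-cultured CT26 4.54 and 4.67. In RAW alone it read 5.02 and 4.75, and in co-cultured RAW 8.84 and 9.03. Only the co-cultured RAW arrays stood above the floor of 5.21 to 5.28, and they did not overlap with any other group. The change was 3.81 and 4.27 in RAW and -0.22 and 0.10 in CT26, a difference of 4.10 ± 0.21 (SE, n = 2 experiments), or 17.2-fold (limma adjusted p = 0.00446). The call was lost without array 1 of CT26 alone (4.01, adjusted p = 0.0597) or array 1 of co-cultured CT26 (4.04, adjusted p = 0.0566), with adjusted p of 0.000685 to 0.0473 under the other settings tried. Since Ifi44l lay under the floor in every other group, it entered the test only through co-cultured RAW, and the size of its change is not well measured. Another probe set for it gave 3.35 and a dim one 0.04, and the mean of all its probe sets 2.50 (adjusted p = 0.0174).

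The genes next to Ifi44l by the strength of the test were Epsti1, H2-T24, Slfn5, Car2, Cfp, Oasl1 and Trafd1, and none passed without the block. All 7 passed with the block per line, at limma adjusted p between 0.00113 and 0.0205. Epsti1, an interferon-induced gene first described in tumour-stroma interplay, read 6.70 and 6.84 in CT26 alone and 6.69 and 6.66 in co-cultured CT26. In RAW it read 7.66 and 7.65 alone and 9.72 and 10.04 in co-culture. The arrays of the 2 conditions did not overlap in RAW, with changes of 2.05 and 2.39. In CT26 the changes were -0.01 and -0.18, and the conditions all but met, at 6.70 alone and 6.69 in co-culture in experiment 1. The difference was 2.32 ± 0.20 (limma adjusted p = 0.0563 without the block and 0.00209 with it). Other probe sets of Epsti1 above the floor gave differences of 2.64 and 0.33. H2-T24, a non-classical MHC class I gene with close relatives on the array, went from 5.21 and 5.23 to 8.56 and 9.19 in RAW. In CT26 it read 4.98 and 5.06 alone and 5.28 and 4.88 in co-culture, not above the floor, and its difference was 3.60 ± 0.32 (adjusted p = 0.0563, and 0.00209 with the block). Slfn5, a Schlafen gene, had a difference of 2.25 ± 0.30 and also lay under the floor in CT26. Slfn5 and H2-T24 were not above the floor in RAW alone either. They entered the test only through co-cultured RAW, and the sizes of their changes are not well measured. Oasl1, an oligoadenylate synthetase-like gene, and Trafd1, a brake on innate immune signalling, had differences of 1.94 ± 0.30 and 1.45 ± 0.23. Car2 and Cfp are not known chiefly as interferon genes. Car2, the carbonic anhydrase that osteoclasts use to make acid, changed by 2.49 and 1.79 in RAW and by -0.21 and -0.18 in CT26. Cfp encodes properdin, a stabiliser of the alternative complement pathway made by myeloid cells. It changed by 1.17 and 1.37 in RAW and by 0.20 and -0.10 in CT26. A second probe set of Cfp gave a difference of 0.64.

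On the other side, the 8 genes with the strongest evidence for a more negative change in RAW were Olfml3, Fgf13, Serpinb1b, Slc40a1, Vegfc, Itgal, Cav2 and Cd207. None passed without the block (adjusted p of 0.136 to 0.426) and all passed with the block per line. Olfml3, a secreted matrix protein, read 9.66 and 10.35 in RAW alone and 7.21 and 7.47 in co-cultured RAW. In CT26 it read 6.25 and 6.23 alone and 6.49 and 6.52 in co-culture. The arrays of the 2 conditions did not overlap in either line and moved in opposite directions, with a difference of -2.93 ± 0.32 (adjusted p = 0.136, and 0.00113 with the block per line). Vegfc, a growth factor for lymphatic vessels, read 7.79 and 7.26 in RAW alone and 5.48 and 5.51 in co-culture, and 3.87 to 4.16 on the CT26 arrays, under the floor. Its difference was -1.99 ± 0.28, and a second probe set gave -2.07. Slc40a1, the iron exporter ferroportin, changed by -1.82 and -1.45 in RAW, where it ended under the floor, and Itgal, the alpha chain of the leukocyte integrin LFA-1, by -1.45 and -1.11. A second probe set gave a difference of -1.27 for Slc40a1 and of -0.72 for Itgal. Cd207, the C-type lectin langerin, changed by -1.56 and -1.06 in RAW and by 0.26 and 0.60 in CT26. Fgf13, Serpinb1b, Slc40a1, Vegfc and Itgal were not above the floor in CT26, so for these 5 the CT26 side of the comparison shows only that the gene was not above the floor. Cav2, a caveolin, is different, because it was bright in both lines. It read 12.81 and 12.83 in CT26 alone and 12.85 and 12.65 in co-culture, against 11.62 and 11.77 in RAW alone and 10.51 and 10.55 in co-culture. Only the RAW groups were apart, with a difference of -1.10 ± 0.17 (adjusted p = 0.385, and 0.0195 with the block per line); a dimmer probe set gave -0.25. Cav1, its partner in caveolae, is not one of the 8 and is named after its values were seen: it changed by -1.79 and -2.19 in RAW, while its 4 CT26 arrays read 13.44 to 13.46 (limma adjusted p = 0.00436 for the difference with the block per line).

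**Figure D2:**
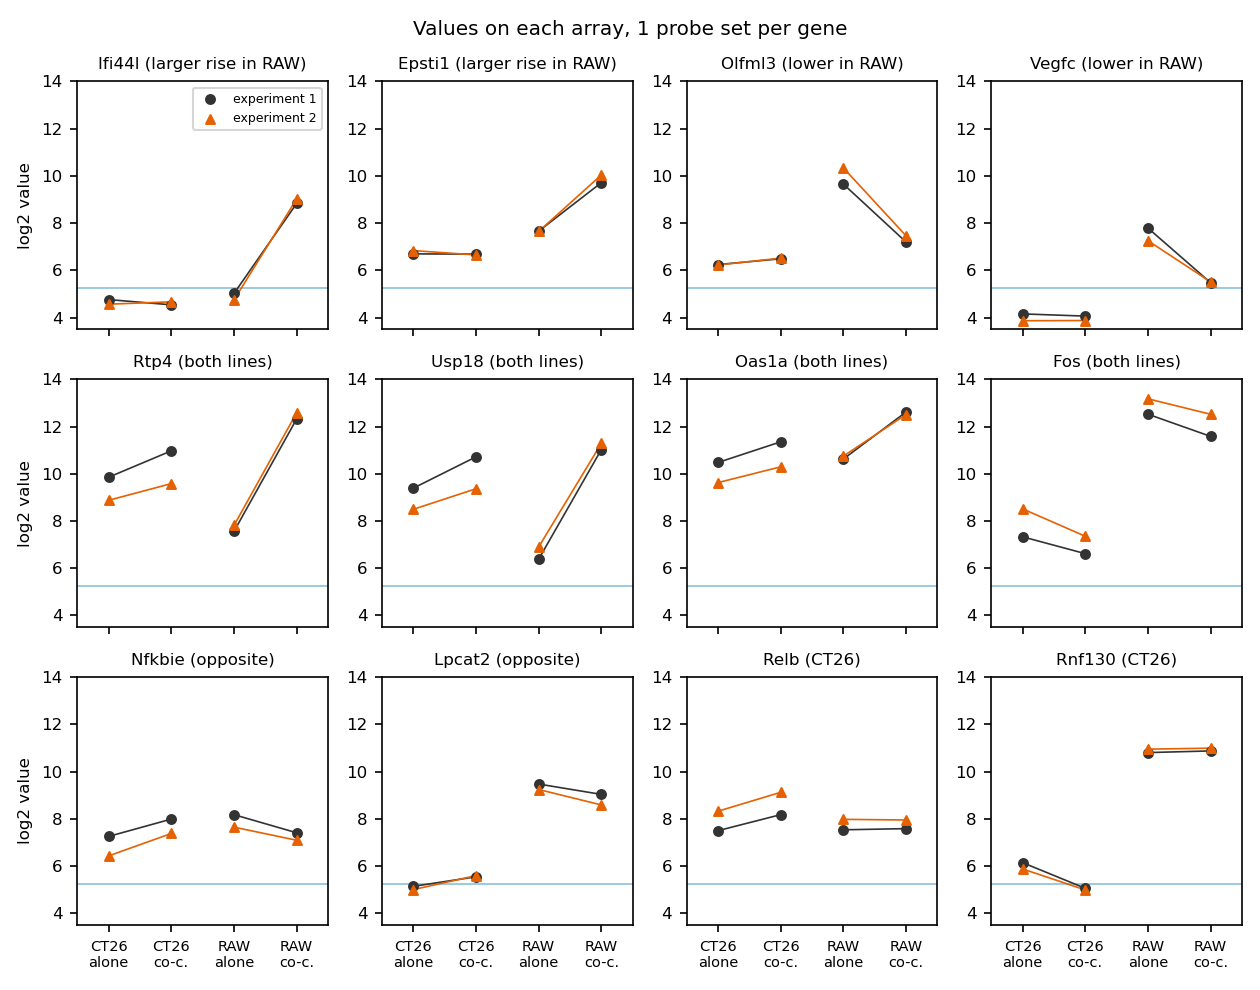
Deposited log2 values on each array for 12 of the named genes, with circles for experiment 1 and triangles for experiment 2, lines joining alone and co-culture (co-c.) within an experiment, and a blue band at the floor of 5.21 to 5.28. Ifi44l and Epsti1 are higher with co-culture in RAW and not in CT26, Rtp4, Usp18 and Oas1a are higher with co-culture in both lines, and Nfkbie and Lpcat2 slope in opposite directions.

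Most genes past the threshold in both lines are known interferon-stimulated genes, and nearly all had the larger change in RAW. The 12 genes past 0.5 in both lines and both experiments were Usp18, Xaf1, Ddx60, Oasl2, Rtp4, Oas1a, Oas3, Irf9, Irgm2, Gbp3, Slc16a3 and Fos. Over the 11 higher ones the median change was 2.35 in RAW and 0.77 in CT26, and 10 of them changed more in RAW. Gbp3, an interferon-inducible GTPase, was the exception, with 0.59 and 0.51 in RAW and 0.91 and 0.51 in CT26. With the block per line 7 of the 11 were called for the difference: Usp18, Xaf1, Rtp4, Oas1a, Oas3, Irf9 and Irgm2. Of all tested genes 0.386% were called higher, but the 11 were picked by the size of their changes. Usp18, the protease that removes ISG15 from proteins and dampens interferon signalling, read 9.39 and 8.49 in CT26 alone and 10.71 and 9.37 in co-culture. In RAW it read 6.38 and 6.90 alone and 11.02 and 11.28 in co-culture. It was thus higher in CT26 than in RAW without co-culture and higher in RAW with it, and the arrays of the 2 lines did not overlap in either case. The difference was 3.42 ± 0.68 (adjusted p = 0.57 without the block), and ± 0.18 with the block per line (adjusted p = 0.00113). Rtp4, an interferon-induced receptor chaperone, read 9.85 and 8.87 in CT26 alone and 10.97 and 9.58 in co-culture. Its RAW values were 7.56 and 7.81 alone and 12.32 and 12.58 in co-culture. The order of the lines turned over in the same way, with a difference of 3.85 ± 0.68 (adjusted p = 0.454, and 0.000529 with the block per line). Ddx60, an RNA helicase of antiviral defence, changed by 1.17 and 0.77 in CT26 and by 1.59 and 1.80 in RAW, where it was not above the floor without co-culture, and its difference of 0.72 ± 0.38 was not called (adjusted p = 0.148 with the block per line). Slc16a3, the lactate exporter MCT4, had 0.50 and 0.85 in RAW and 0.58 and 0.52 in CT26, with a difference of 0.12 ± 0.63.

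Fos, the immediate-early transcription factor gene, was the single gene lower in both lines. It read 7.33 and 8.51 in CT26 alone and 6.62 and 7.35 in co-culture, and 12.52 and 13.17 in RAW alone and 11.58 and 12.52 in co-culture. The conditions overlapped in CT26 and came within rounding of each other in RAW, since the experiments lay apart, while within each experiment co-culture was lower by 0.66 to 1.16 log2 units. The difference between lines was 0.14 ± 0.71 (limma adjusted p = 1), or ± 0.18 with the block per line (adjusted p = 0.815). Its sign turned in 4 of the 8 fits that left out 1 array.

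The promoters of 4 genes, 1 for each pattern, are shown to place the motif named for each gene relative to its start. They run from 250 bases before to 50 bases after the RefSeq start (build GRCm38.p6), in the direction of the gene, with matches in capitals. The interferon-stimulated response element was searched as its core GAAANNGAA on both strands, and for Nfkbie, whose window does not hold that core, the kappaB consensus is shown. Ifi44l, with a change in RAW and none past 0.25 in CT26, is at chr3:151762842-151763141 on the minus strand. Oas3, higher in both lines, is at chr5:120777610-120777909 on the minus strand. Gbp2, higher in CT26, is at chr3:142620413-142620712 on the plus strand, and Nfkbie, with opposite changes, is at chr17:45555450-45555749 on the plus strand.
Ifi44l: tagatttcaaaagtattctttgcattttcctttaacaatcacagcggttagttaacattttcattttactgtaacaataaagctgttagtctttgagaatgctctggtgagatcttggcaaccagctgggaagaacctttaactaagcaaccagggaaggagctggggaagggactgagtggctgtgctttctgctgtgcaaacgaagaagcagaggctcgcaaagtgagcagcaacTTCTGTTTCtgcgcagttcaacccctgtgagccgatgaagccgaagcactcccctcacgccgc
Oas3: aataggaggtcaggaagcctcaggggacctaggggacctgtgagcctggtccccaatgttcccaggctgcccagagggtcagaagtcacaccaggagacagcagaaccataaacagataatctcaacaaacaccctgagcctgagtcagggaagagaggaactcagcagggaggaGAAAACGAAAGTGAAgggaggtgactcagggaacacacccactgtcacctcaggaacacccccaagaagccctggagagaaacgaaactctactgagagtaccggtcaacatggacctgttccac
Gbp2: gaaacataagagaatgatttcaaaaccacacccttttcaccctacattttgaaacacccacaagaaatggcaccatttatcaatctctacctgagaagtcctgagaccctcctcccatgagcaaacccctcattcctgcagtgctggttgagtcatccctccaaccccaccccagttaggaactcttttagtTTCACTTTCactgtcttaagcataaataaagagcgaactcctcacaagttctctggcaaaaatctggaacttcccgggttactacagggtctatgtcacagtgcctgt
Nfkbie: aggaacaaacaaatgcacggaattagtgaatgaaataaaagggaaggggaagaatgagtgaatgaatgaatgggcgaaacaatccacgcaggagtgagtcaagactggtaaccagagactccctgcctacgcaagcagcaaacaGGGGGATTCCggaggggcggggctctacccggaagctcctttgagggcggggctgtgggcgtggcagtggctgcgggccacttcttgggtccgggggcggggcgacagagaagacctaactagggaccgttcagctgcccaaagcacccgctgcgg
Counted from the start site, the match begins at -13 in Ifi44l and at -58 in Gbp2, both on the opposite strand, and 2 overlapping matches begin at -75 and -69 in Oas3. The kappaB match of Nfkbie begins at -106.

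The core was found in 879 of the 10602 tested genes with a promoter in the table (8.29%). Among the 51 genes called higher in RAW for the difference with the block per line, 38 had a promoter and 18 of these held the core (47.4%). Among the 47 called lower, 39 had a promoter and 4 held it (10.3%). Of the 11 genes higher in both lines 9 had a promoter and 5 held the core. Of the 9 genes higher in CT26 and not in RAW 7 had a promoter and 3 held it, which were Gbp2, Gbp2b and Cxcl10. The kappaB consensus was found in 4 of the same 7 promoters (57.1%), in 7 of the 38 called higher (18.4%) and in 6 of the 39 called lower (15.4%), beside 1313 of 10602 tested genes (12.4%). The shares describe these letters in this window and not binding.

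Interferon-stimulated genes as a list were higher with co-culture in both lines, by more in RAW. Among the 42 tested, RAW had 40 that were higher in both experiments and CT26 had 38, against 32.5% and 23.8% of all tested genes. Higher in both lines and both experiments were 36 of 42, or 85.7%, against 8.79% of all tested genes. The median change was 1.64 log2 units in RAW and 0.45 in CT26. The difference was higher in both experiments for 39 of 42, against 34.1% of all tested genes, with a median of 1.13 (0.93 in experiment 1 and 1.41 in experiment 2) beside 0.02 over all tested genes. It lay between 0.85 and 1.43 when any 1 array was left out. Limma called 0 of the 42 for the difference without the block and 21 with the block per line, all higher in RAW. Of all tested genes 0.386% were called higher with the block per line. Only Cxcl10, a chemokine for T cells, had the larger change in CT26. It read 8.36 and 7.60 in CT26 alone and 9.04 and 8.37 in co-culture, and 9.07 and 8.97 in RAW alone against 8.96 and 9.44 in co-culture, where the arrays of the 2 conditions overlapped, with a difference of -0.55 ± 0.46 (adjusted p = 1).

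The levels of the list before co-culture were mixed between the lines. Without co-culture 17 of the 42 members were higher in CT26 than in RAW with arrays not overlapping, beside 37.1% of all tested genes, and 13 were lower, beside 30.2% of all tested genes. The median gap, CT26 minus RAW, was 0.09 log2 units. With co-culture 29 of 42 were higher in RAW than in CT26 with arrays not overlapping, beside 30.5% of all tested genes, and the median gap was -1.08. For 5 members, Usp18, Rtp4, Oasl1, Ifih1 and Mx2, CT26 was above RAW alone and RAW was above CT26 in co-culture, an order change seen in 69 of all tested genes (0.523%). The reverse order change was seen in 75 tested genes and in 0 of the list. Ifit1, Ifit2, Oasl2 and Isg20 had the higher level in CT26 in co-culture, with arrays not overlapping, which makes 4 of 42 beside 35% of all tested genes. For Isg20, an exonuclease against viral RNA, CT26 read 9.77 and 8.98 and RAW 7.09 and 7.61. By role, the list's transcription factor genes Irf7 (difference 3.14 ± 0.66), Irf9 (0.98 ± 0.40) and Stat2 (0.75 ± 0.70) all had the larger change in RAW. Irf7 and Irf9 were called with the block per line (adjusted p = 0.0014 and 0.0241), and Stat2 was not (0.135). Among the cytosolic RNA sensors, Ddx58, which encodes RIG-I, had 2.16 ± 0.50, Dhx58 2.62 ± 0.46 and Ifih1, which encodes MDA5, 1.49 ± 0.43, and all 3 were called with the block per line. By other probe sets Dhx58 had 1.95 and 0.75. Other members had smaller values. Ifit2 and Ifit3, which bind viral RNA, had 0.39 ± 0.22 and 0.57 ± 0.31, Rsad2, an antiviral enzyme, had 0.31 ± 0.35, and none of the 3 was called with or without the block. The probe sets of Oas1a, the Gbp, Irgm and Schlafen genes and H2-T24 may also take up transcripts of near relatives, so their values are uncertain in that respect.

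**Figure D3:**
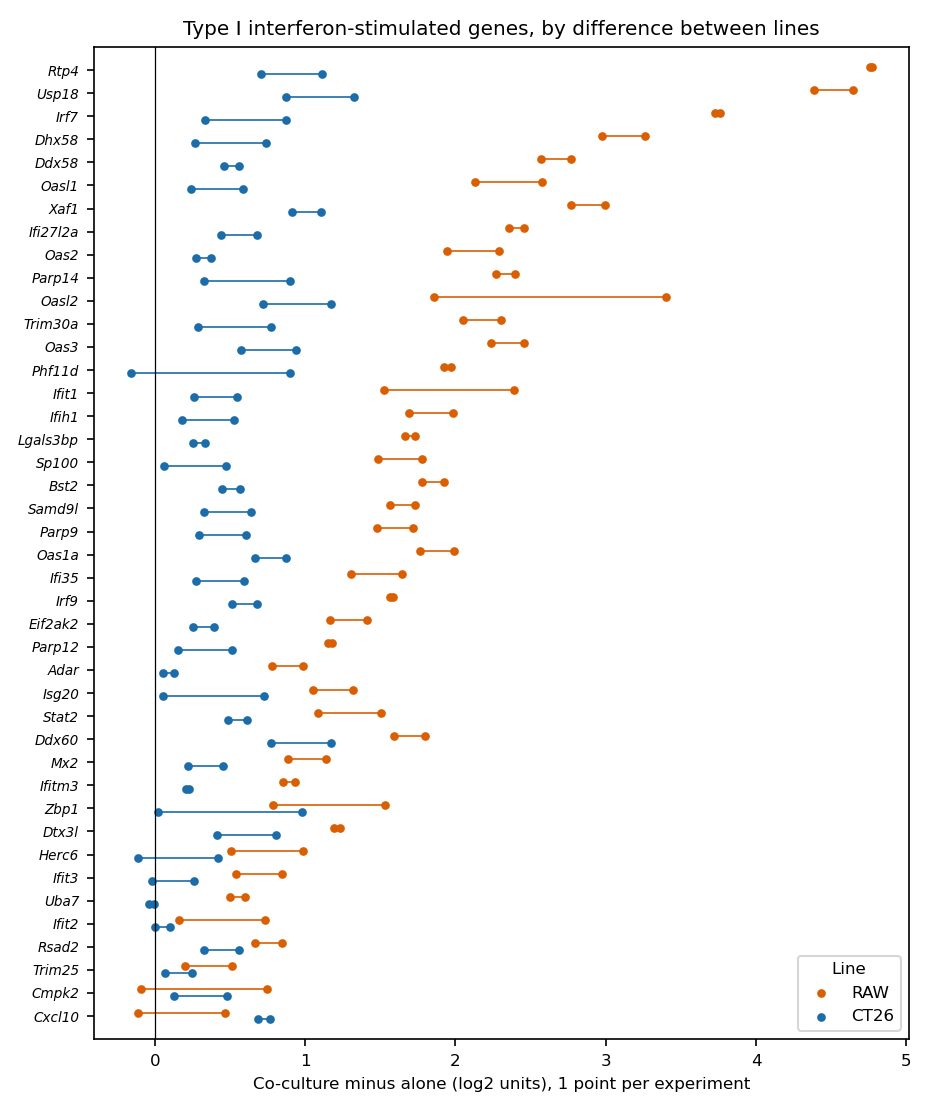
Change with co-culture in log2 units for the 42 tested type I interferon-stimulated genes, ordered by the difference between lines, with 1 point per experiment joined by a line, orange for RAW and blue for CT26. RAW lies to the right of CT26 for all members but Cxcl10 on average over the experiments, and most CT26 points lie right of 0.

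GTPases induced by interferon-gamma, taken with genes that present antigen, were also mostly higher in both lines. Of 25 tested members 15 were higher in both lines and both experiments (60%, against 8.79% of all tested genes). The median difference was 0.22 (0.05 to 0.36 without any 1 array). With the block per line 3 were called, all higher in RAW, against 0.386% of all tested genes. These 3 were GTPases that guard against vacuolar pathogens. Irgm2 changed by 2.47 and 2.51 in RAW and 0.73 and 0.60 in CT26 (difference 1.82 ± 0.42, adjusted p = 0.821, and 0.00209 with the block per line). Irgm1 had a difference of 1.96 ± 0.44 and Igtp one of 1.48 ± 0.35. Interferon receptors and JAK-STAT genes showed little of either, with a median difference of 0.07 over 23 members (0.02 to 0.18 without any 1 array) and 0 calls with the block per line.

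CT26 had few changes of its own, and none was called. Tnfrsf9, the co-stimulatory receptor 4-1BB, read 7.33 and 7.67 in CT26 alone and 8.58 and 8.30 in co-culture, and 6.74 and 6.66 in RAW alone and 6.69 and 6.39 in co-culture. The CT26 groups did not overlap and the RAW groups did. The difference was -1.10 ± 0.25 (limma adjusted p = 0.821, and 0.0997 with the block per line), and a dimmer probe set changed by 0.66 in RAW and 1.30 in CT26. Relb, the NF-kB subunit of the non-canonical pathway, read 7.49 and 8.32 in CT26 alone and 8.17 and 9.12 in co-culture. In RAW it read 7.53 and 7.97 alone and 7.58 and 7.95 in co-culture, and the difference was -0.73 ± 0.55 (adjusted p = 0.0632 with the block per line). The guanylate-binding protein genes Gbp2 and Gbp2b, which are similar in sequence, changed in CT26 by 0.96 and 0.71 and by 1.14 and 0.57. They lay under the floor in RAW in both conditions. Neither was above the floor in CT26 alone, so the sizes of these changes are not well measured. A dim second probe set of Gbp2 changed by 0.38 in RAW and by 0.44 in CT26. On the lower side, Rnf130, a ubiquitin ligase gene, read 6.14 and 5.87 in CT26 alone and 5.05 and 4.99 in co-culture, under the floor. It read 10.80 and 10.95 in RAW alone and 10.87 and 10.99 in co-culture. The difference of 1.04 ± 0.19 was called with the block per line (adjusted p = 0.0198), but another probe set above the floor gave 0.04. Akr1c14, a steroid-reducing enzyme gene, changed by -0.69 and -0.91 in CT26 and lay under the floor in RAW.

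Nfkbie, which encodes the NF-kB inhibitor IkB-epsilon and is itself a target of NF-kB, had changes of opposite sign. It read 7.25 and 6.43 in CT26 alone and 7.99 and 7.38 in co-culture. It read 8.17 and 7.64 in RAW alone and 7.41 and 7.09 in co-culture. The conditions did not overlap in either line, and co-culture brought the lines from a gap in which RAW was higher to overlapping values. The difference was -1.50 in both experiments (± 0.48, limma adjusted p = 1, and ± 0.14 with adjusted p = 0.00813 with the block per line). A second probe set gave -1.37. At 0.3 log2 units 3 more genes had opposite signs in both experiments, and all of them were lower in RAW and higher in CT26. Lpcat2, a phospholipid-remodelling enzyme gene, changed by -0.44 and -0.65 in RAW and by 0.41 and 0.59 in CT26. Dtx4, of the Deltex ubiquitin ligases, changed by -0.42 and -0.44 in RAW and by 0.44 and 0.48 in CT26. Cd37, a leukocyte tetraspanin, changed by -0.36 and -0.38 in RAW and by 0.42 and 0.45 in CT26. Each of the 3 was called with the block per line (adjusted p = 0.0262, 0.0251 and 0.0348), and none without it. Other probe sets gave different values for these 3. That of Lpcat2 changed by -0.43 in RAW and by 0.06 in CT26, still of opposite sign, that of Cd37 by 0.10 in RAW and 0.61 in CT26, and that of Dtx4 by 0.14 in RAW and -0.56 in CT26. Over all tested genes, RAW was lower and CT26 higher in both experiments for 5.67%, and RAW higher and CT26 lower for 8.54%. Several genes higher in co-cultured CT26, among them Cd37, Lpcat2, Plcg2, Dtx4 and Cd207, were brighter by over 3 log2 units in RAW than in CT26 alone. Rnf130, brighter in RAW by as much, was lower in co-cultured CT26. Over the whole list of macrophage markers, the mean per CT26 array was 5.90 to 5.91 alone and 5.88 to 5.92 in co-culture. Only 9 to 11 of the 18 markers lay above the floor in CT26, and such a mean can hide changes of single markers. The reason for the rise of Cd37, Lpcat2, Plcg2, Dtx4 and Cd207 in CT26 was not tested.

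NRF2 antioxidant genes were mostly lower in RAW with co-culture. RAW had 25 of 31 tested members lower in both experiments and CT26 had 12, against 29.1% and 30.1% of all tested genes. The difference was lower in both experiments for 22 (71%, against 26.7% of all), with a median of -0.23 that stayed between -0.33 and -0.18 when any 1 array was left out. Limma called 0 without the block and 4 lower with the block per line, against 0.356% of all tested genes. The 4 were Gclm, Ephx1, Hmox1 and Slc40a1. Gclm, the regulatory subunit of glutathione synthesis, read 11.94 and 12.85 in RAW alone and 10.71 and 11.73 in co-culture, and 10.86 and 11.41 in CT26 alone and 10.88 and 11.56 in co-culture. The RAW conditions did not overlap and the CT26 ones did, with a difference of -1.26 ± 0.64, or ± 0.12 with the block per line (adjusted p = 0.00921). Ephx1, an epoxide hydrolase, had -1.19 ± 0.20 and was bright in CT26, at 10.98 to 11.14 on its 4 arrays. Hmox1, heme oxygenase, had -1.19 ± 0.43 (adjusted p = 0.0399 with the block per line).

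The ATF4 list went the other way. Of its 38 tested genes, RAW had 34 with a higher value in co-culture in both experiments and CT26 had 12. The shares of all tested genes were 32.5% in RAW and 23.8% in CT26. The difference was higher in both experiments for 29 of the 38 (76.3%, against 34.1% of all tested genes). The median difference was 0.24, between 0.21 and 0.32 without any 1 array, and 0 members were called without the block or with the block per line. Stc2, a secreted stress glycoprotein, read 7.82 and 8.17 in RAW alone and 9.17 and 9.03 in co-culture, and 7.86 and 7.61 in CT26 alone and 7.53 and 7.63 in co-culture. It came nearest to a call, with 1.26 ± 0.23 (limma adjusted p = 0.0515 with the block per line). Slc7a11, the cystine importer shared with the NRF2 programme, was against the list, with -1.02 and -0.33 in RAW and -0.68 ± 0.35 for the difference. Endoplasmic reticulum chaperone genes had a small shift of the same kind. The difference was higher in both experiments for 16 of 21 (76.2%, against 34.1% of all tested genes). The median difference was 0.13 (0.11 to 0.25 without any 1 array), and 0 of the 21 were called. The median change was 0.09 in RAW and -0.03 in CT26.

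Other lists were alike in both lines or split. Glycolysis enzyme genes had nearly the same median change in RAW (0.15) and CT26 (0.14), and the median difference was 0.01. Of the 15, 9 were higher in both lines and both experiments (60%, against 8.79% of all tested genes). Of 30 hypoxia targets 14 were higher in both lines and both experiments (46.7%, against 8.79% of all tested genes). Their median change was 0.28 in RAW and 0.20 in CT26. Selenbp1, a selenium-binding protein gene, was the single call for the difference (0.99 ± 0.25, limma adjusted p = 0.0291 with the block per line), beside 0.743% of all tested genes. It was not above the floor in CT26 in either condition. The median difference of hypoxia targets, 0.10, lay between -0.04 and 0.35 without any 1 array, and that of glycolysis genes between -0.21 and 0.12. The NF-kB target list had a median difference of -0.09 that changed sign without array 1 of co-cultured RAW (0.03) or array 2 of either CT26 group (both 0.01). Within it Ccl2, the monocyte chemokine, changed by 1.16 and 1.93 in RAW and by 0.72 and -0.31 in CT26, opposite to Nfkbie, and was not called for the difference. DNA replication genes had a difference higher in both experiments for 19 of 31 (61.3%, against 34.1% of all tested genes). Their median change was 0.07 in RAW and -0.07 in CT26, with 0 calls. Their median difference of 0.10 was -0.02 without array 2 of RAW alone. Of 14 osteoclast genes, 9 had a lower difference in both experiments (64.3%, against 26.7% of all tested genes). Car2 was the single call with the block per line and was higher, beside 0.743% of all tested genes called in either direction. The median difference of the osteoclast genes, -0.22, became 0.01 without array 1 of co-cultured RAW and 0.02 without array 2 of RAW alone. Cholesterol synthesis genes had a median difference of 0.17 (-0.01 to 0.28 without any 1 array). Of the 20, 8 were higher in both lines and both experiments (40%, against 8.79% of all tested genes). In the TGF-beta list Pmepa1 (-1.59) and the integrin gene Itgav (-0.87) were called lower with the block per line, against 0.356% of all tested genes. Of its 22 tested members 12 had a lower difference in both experiments (54.5%, against 26.7% of all tested genes). A higher difference in both was found for 7 (31.8%, against 34.1%). The median difference was -0.11, between -0.24 and 0.06 without any 1 array.

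**Figure D4:**
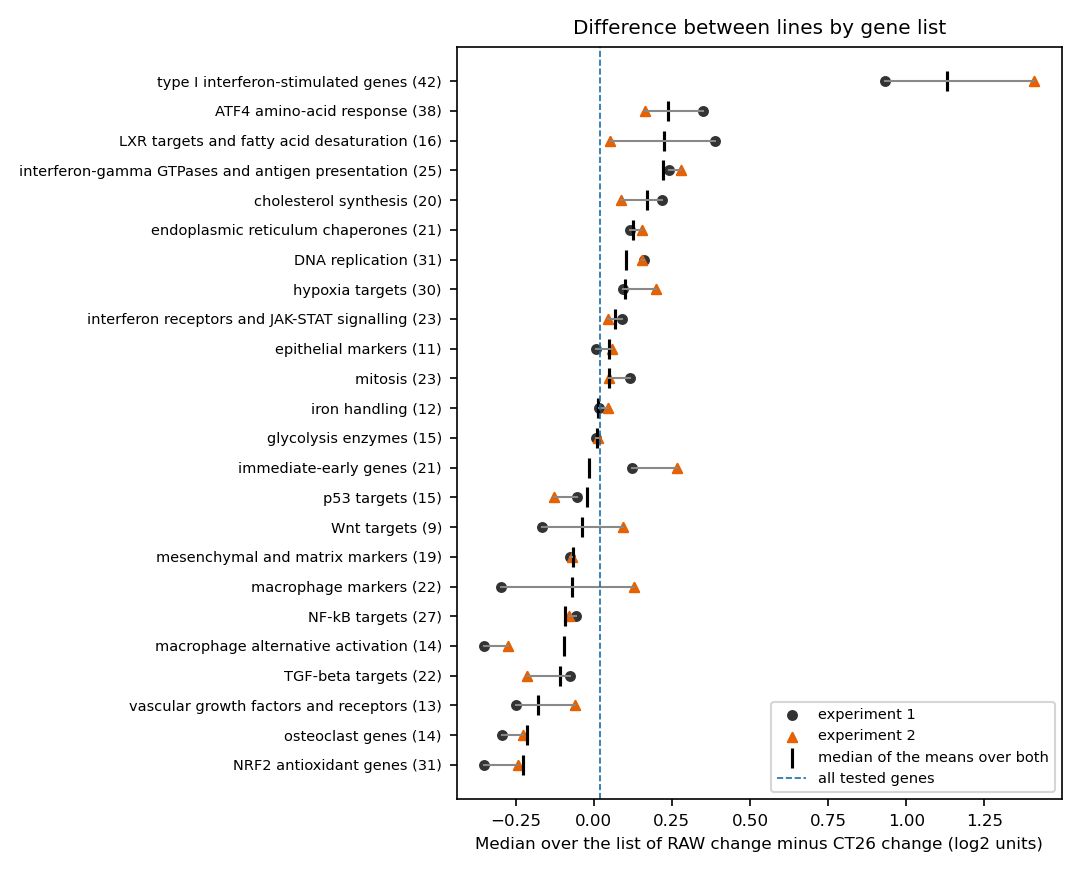
Median over each gene list of the RAW change minus the CT26 change, in log2 units, for lists with at least 9 tested genes (number in parentheses), with a circle for experiment 1, a triangle for experiment 2, a bar for the median of the gene means over both and a dashed line for all 13196 tested genes (0.02). Type I interferon-stimulated genes lie at 0.93 and 1.41, apart from every other list shown. NRF2 genes have the lowest bar (-0.23, beside -0.22 for osteoclast genes), while in experiment 2 macrophage alternative activation genes lie lower (-0.27 against -0.24).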

How the data were processed

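The values are the log2 expression values deposited by the authors in 1 table of 8 arrays, and the submitters' processing notes name RMA and the R package affy. The sources used here do not give their versions. RMA compresses low signals, so folds near the floor are understated. Of 45101 probe sets, 64 controls were left out, 34945 had 1 gene symbol in the platform annotation, 932 several and 9160 none, and names were checked against the RefSeq gene table, where 34741 matched and 0 symbols changed. Array medians lay between 5.88 and 5.94, no columns were identical, and precision is limited by having 2 arrays per group.

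A model of the 4 group means was fitted with limma 3.58.1 in R 4.3.3 (two-sided moderated tests, 4 residual degrees of freedom, Benjamini-Hochberg adjustment over all tested genes), and was tested on simulated data. The main fit had no block. The labels give only a first and a second array per group and do not say that these came from separate experiments. Departures from the group mean correlated between arrays of 1 number in every pair of groups (0.484 to 0.765). On that basis, arrays with the same number were treated as 1 experiment, which is an inference. Fits with a block, either common to both lines (3 residual degrees of freedom) or per line (2), were alternatives, beside filters, probe-set averages, cyclic loess and leaving out arrays. The genes, the 27 lists and the tests were chosen with earlier results of these data known. Named genes were those called for the difference with the same sign of the difference in each experiment, then the largest moderated statistics until each direction had 8, the 8 with the largest smaller change among both lines' genes, up to 6 of CT26 and of opposite signs, and up to 4 of each list by size of difference. Other genes named by role were chosen after their values were seen. Promoter sequences are RefSeq's, of build GRCm38.p6.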

Additional observations from a re-analysis of the deposited data

Results flagged for a closer look

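The difference between lines was larger than the spread between arrays for Ifi44l, at 4.10 log2 units (limma adjusted p = 0.00446 without the block). Ifi44l entered the test only through co-cultured RAW, and its spread in the other groups was that of values under the floor. For 13 other of the 34 named genes outside the lists, RAW and CT26 moved with opposite signs in both experiments, although the difference was not called without the block. On the higher side these were Epsti1 (2.32), Slfn5 (2.25), Car2 (2.33) and Rnf130 (1.04). On the lower side they were Olfml3 (-2.93), Slc40a1 (-1.71), Cd207 (-1.74), Nfkbie (-1.50), Lpcat2 (-1.04), Dtx4 (-0.89), Cd37 (-0.81), Tnfrsf9 (-1.10) and Gbp2b (-0.88). With the block per line, Tnfrsf9 (adjusted p = 0.0997) and Gbp2b (adjusted p = 0.128) did not pass and the other 11 did. In several of these genes 1 of the 2 changes was near 0, such as -0.01 and -0.18 for Epsti1 in CT26. Slfn5 and Slc40a1 were not above the floor in CT26, nor was Gbp2b in RAW, so their signs there are not well measured. Other probe sets of Dtx4, Cd37, Rnf130, Tnfrsf9 and Slc40a1 did not repeat these signs. Over all tested genes, RAW was higher and CT26 lower in both experiments for 8.54%, and the reverse held for 5.67%. Some of the 34 were picked for opposite signs or a large difference.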

How the results depend on the processing

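The count of genes called for the difference between lines was the most dependent on the fit. It was 1 without a block, 11 with the replicate block shared by the lines, 98 with the block per line, 30 by paired values, 4 with a trended and robust variance, and 0 to 2 when any 1 array was left out. It was 0 without array 1 of CT26 alone or of co-cultured CT26 and 2 without array 1 of either RAW group, where the lone array left in a group is assumed to vary like the others. The count in RAW was 33, 146 with the shared block and 470 with the block per line, and 2 to 30 without 1 array. In CT26 it was 0 in every fit run. The filters, the average over probe sets and cyclic loess left the difference at 1 call. The number of genes changed in CT26 and not in RAW fell from 13 to 8 with a floor at the 60th percentile and to 7 with probe sets averaged. At 0.3 log2 units the classes held 811 (RAW), 105 (CT26), 38 (both) and 4 (opposite) genes, and at 1 they held 94, 0, 0 and 0. Of the 34 genes named outside the lists, the sign of the difference turned for Fos alone, which lay between -0.45 and 0.73 without 1 array. With the block per line 25 of the 34 became calls, with the shared block 6, and with the trended and robust variance 3. No scaling moved the median of all genes by over 0.1. Genes under the floor in 1 line, 490 of those tested in CT26 and 588 in RAW, limit what the difference can show.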
